A study of Rattus norvegicus with 10 samples.

Results

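Olfactory receptor genes are read in the nose, and rat cortex is not known to use most of them, yet 65 of the 1128 olfactory receptor probe sets with a single gene symbol gave a mean signal above 4.6 log2 in left cortex. They were chosen by that level alone. All single-symbol probe sets whose symbol has the form of a current receptor name (Or, a family number, a subfamily letter and a gene number) were taken, and those with a mean over the 10 arrays above 4.6 were kept. The level is one under which nearly all receptor probe sets lie (95th percentile 4.70 over the 1128). The 65 probe sets stood for 65 genes, out of 18511 single-symbol probe sets on the array.

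Cortex was taken 3 h after surgery from male adult Sprague-Dawley rats, and RNA of each animal was put on its own Affymetrix Rat Gene 2.0 ST array. The groups were MCAO+NRG1 (n = 3), in which the EGF-like domain of neuregulin-1β was injected into the internal carotid artery just before the left middle cerebral artery was permanently occluded with an intraluminal suture, MCAO (n = 3), in which the animals had the same occlusion and the vehicle (BSA in PBS), and sham (n = 4), in which animals had surgery without occlusion. For the sham animals no injection is reported. Values are log2 RMA signals, and ± is the SD unless SE is written. Signals of different probe sets are not on one scale, so an order by signal describes probe sets and not RNA amounts. The table holds no detection call for a probe set.

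Olfactory receptors are G protein-coupled receptors of the cell membrane. In the nose, each sensory neuron chooses a single receptor gene, and odorant binding acts through the G protein subunit Gnal and adenylate cyclase Adcy3 to open the channel of Cnga2, Cnga4 and Cngb1. The genes lie in tandem clusters, usually have their whole coding sequence in a single exon, and are split into class I (families 51 to 56) and class II (the other families). RNA of some receptors is also found in tissues outside the nose, the brain included.

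Most of the 65 receptors were only a little above the level. Their median was 5.10, with a range of 4.61 to 8.70, against a median of 2.95 and a range of 2.26 to 4.57 in the 1063 receptor probe sets at or under the level. Of the 65, 36 had a mean above 5, 6 above 6 and 2 above 7. Just inside the level were Or10d4, Or14c39b and Or9r3b at 4.62, 4.62 and 4.61, and just outside it Or7h7, Or52l1b and Or8s10 at 4.57, 4.56 and 4.53. On all 10 arrays 24 of the 65 were above 4.6, and 43 had all 3 group means above it. Since the level chose these receptors, these values are a description.

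**Figure D1:**
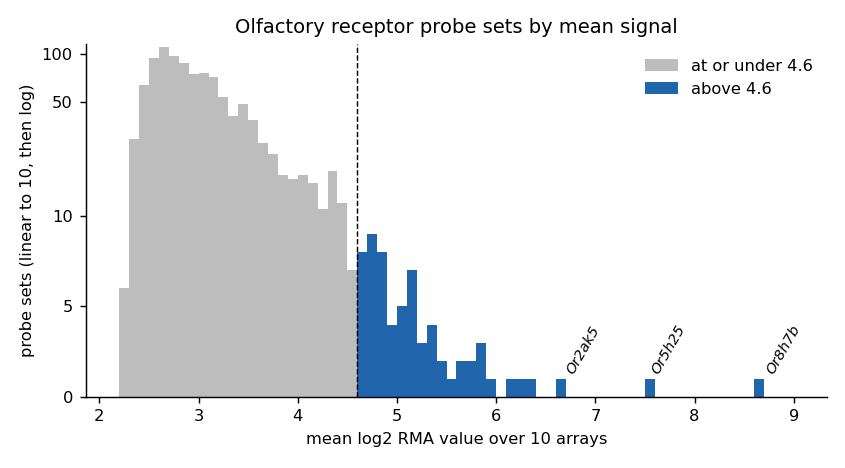
Number of olfactory receptor probe sets (vertical axis, linear to 10 and then log) by mean log2 RMA value over 10 arrays (horizontal axis), with the level of 4.6 as a dashed line. The 65 probe sets above it are a tail of a single distribution of 1128, and Or8h7b, Or5h25 and Or2ak5 lie farthest out.

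The 3 receptors farthest out are shown with a close copy of each, because each pair starts its coding sequence almost alike while the 2 signals differ. Each line has 250 bases upstream of the gene model in lower case and its first 50 bases, from the ATG on, in capitals, 5′ to 3′, from the RefSeq annotation of GRCr8. Or8h7b is at chr3:92298000-92298299 and Or8h7 at chr3:92455417-92455716, both on the minus strand. Or5h25 is at chr11:54825299-54825598, Or5h25d at chr11:54836004-54836303, Or2ak5 at chr10:43853826-43854125 and Or2ak6e at chr10:43573039-43573338, all on the plus strand.
Or8h7b: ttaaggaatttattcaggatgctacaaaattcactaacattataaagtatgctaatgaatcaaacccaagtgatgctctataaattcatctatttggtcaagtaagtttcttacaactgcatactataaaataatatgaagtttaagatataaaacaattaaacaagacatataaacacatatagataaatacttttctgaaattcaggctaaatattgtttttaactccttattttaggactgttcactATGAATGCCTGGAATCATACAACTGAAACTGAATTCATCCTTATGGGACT
Or8h7: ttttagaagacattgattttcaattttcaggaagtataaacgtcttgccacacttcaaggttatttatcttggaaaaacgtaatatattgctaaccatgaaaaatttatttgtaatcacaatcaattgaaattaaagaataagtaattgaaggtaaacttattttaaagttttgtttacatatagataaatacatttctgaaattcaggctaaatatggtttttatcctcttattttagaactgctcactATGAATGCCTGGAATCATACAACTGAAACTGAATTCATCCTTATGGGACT
Or5h25: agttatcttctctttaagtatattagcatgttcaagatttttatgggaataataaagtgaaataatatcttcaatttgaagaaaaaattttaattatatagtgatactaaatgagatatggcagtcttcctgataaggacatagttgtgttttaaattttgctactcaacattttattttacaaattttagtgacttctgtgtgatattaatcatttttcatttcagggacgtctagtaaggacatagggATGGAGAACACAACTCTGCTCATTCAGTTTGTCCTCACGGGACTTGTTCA
Or5h25d: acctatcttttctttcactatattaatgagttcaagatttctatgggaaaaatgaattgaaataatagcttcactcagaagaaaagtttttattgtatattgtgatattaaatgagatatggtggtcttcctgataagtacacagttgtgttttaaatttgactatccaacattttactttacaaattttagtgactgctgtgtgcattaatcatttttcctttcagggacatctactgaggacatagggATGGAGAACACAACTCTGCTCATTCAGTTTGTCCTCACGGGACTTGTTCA
Or2ak5: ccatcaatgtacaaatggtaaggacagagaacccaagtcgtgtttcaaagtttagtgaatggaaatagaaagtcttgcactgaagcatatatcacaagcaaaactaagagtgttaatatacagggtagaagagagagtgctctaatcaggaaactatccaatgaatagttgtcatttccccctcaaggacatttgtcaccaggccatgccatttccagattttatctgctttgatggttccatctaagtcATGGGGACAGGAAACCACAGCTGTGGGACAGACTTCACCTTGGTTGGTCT
Or2ak6e: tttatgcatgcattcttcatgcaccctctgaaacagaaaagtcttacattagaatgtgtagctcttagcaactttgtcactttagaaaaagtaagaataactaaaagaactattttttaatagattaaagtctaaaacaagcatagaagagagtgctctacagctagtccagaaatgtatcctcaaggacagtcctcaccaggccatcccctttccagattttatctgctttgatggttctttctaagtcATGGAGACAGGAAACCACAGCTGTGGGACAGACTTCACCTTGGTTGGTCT

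Or8h7b and Or8h7 had the same letter at all 50 of the first coding bases and at 124 of the 250 upstream positions, compared without gaps. Or8h7 lay at 2.14 to 2.78 on the 10 arrays, far under the 7.73 to 10.19 of Or8h7b. Or5h25 and Or5h25d also shared all 50 coding bases and 147 upstream positions, and Or5h25d had a mean of 2.47. Or2ak5 and Or2ak6e shared 49 and 119, and Or2ak6e was itself above the level, with a mean of 5.10. The probes of the array were not at hand, so which of these bases a probe set covers is not known here.

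Such copies were common, and the copy was mostly dim, as were receptor probe sets in general (1063 of 1128 at or under the level). A window was found for 57 of the 65 receptors, and 55 of these had a gene model that begins with ATG. Of the 55, 33 had another measured receptor that shares at least 45 of the first 50 bases. The nearest copy was above the level for 3 of the 33 and at or under it for 30, and the median mean signal of these 30 copies was 2.95. Where several copies shared equally many bases, the first by symbol was taken, so these counts depend in part on that order. For Or2ak5 it was Or2ak4c, at 3.06, although Or2ak6e, above the level, shared as many. Because receptor genes are so alike, a signal given to a symbol may hold RNA of a copy, and the share was not measured.

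Upstream letters of the receptors were AT-rich, whether or not the signal was above the level. GC content was 36.8% in the 250 upstream bases of the 57, 34.6% in the 900 windows of receptors at or under the level, and 52.6% over all 27457 windows of the table. The letters TAATTA, a core that Lhx2 and other homeodomain factors can bind, were present in 14 of 57 windows (24.6%), in 18.1% of windows of the dimmer receptors and in 4.94% of all windows. The core that Ebf factors can bind, TCCC and GGGA set 2 bases apart, was in 0 of the 57 and 0 of the 900, against 0.736% of all windows. Both motifs read the same on either strand and do not overlap in letters with each other. A match in these windows describes the letters only. Of the 57 windows, 55 stand directly before the ATG of a gene model that begins with it. Whether the windows of other genes also stand before an ATG was not tested. The values over all windows may therefore come from another kind of region, and the differences from them are not read as promoter differences.

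The 65 receptors came from many families. Family 2 gave 10 of its 113 measured probe sets, family 10 gave 8 of 79, family 4 gave 7 of 148, family 5 gave 6 of 164, and families 1, 9 and 51 gave 5 each, of 92, 29 and 46. Family 52 had none above the level among 73. In class I, 6 of 128 (4.69%) were above it, and in class II 59 of 1000 (5.90%). At the level of subfamilies, 57 of 230 held a receptor above 4.6 and 5 held more than 1: Or2ak with 3 of 12, Or4f with 3 of 25, Or6c with 3 of 45, and Or51f and Or9s with 2 of 8 each.

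In the genome, most lay among receptors that gave little signal, as most receptor probe sets did. In the GRCr8 gene order, 58 of the 65 had another receptor gene or receptor pseudogene directly beside them and 37 had one on both sides. In 6 of the 65 a next measured receptor on either side was also above the level. Of all 1128 receptor probe sets only 65 were above it, so few such neighbours are no trait of these receptors. Chromosome 3 held 15 of 286 measured receptor probe sets above 4.6, chromosome 1 held 12 of 283, chromosome 10 held 12 of 110 and chromosome 7 held 8 of 75. The nearest measured genes that are no receptors were looked up on each side of the brightest 5, and lay 9 to 194 genes away. Fads2b and Pramel6, to either side of both Or8h7b and Or5aq7b, had 2.76 ± 0.15 and 3.41 ± 0.16 in MCAO+NRG1, 2.71 ± 0.09 and 3.52 ± 0.18 in MCAO, and 3.16 ± 0.13 and 3.74 ± 0.26 in sham. Around Or5h25, Gabrr3, a GABA receptor subunit, had group means of 3.00, 3.23 and 3.67 in MCAO+NRG1, MCAO and sham, and Cldnd1 had 9.29, 9.40 and 9.30. Trim58 and Cfap144, around Or2ak5, had 5.06, 5.29 and 5.68, and 4.16, 3.98 and 4.21. Mettl7b and the neuronal factor gene Neurod4, around Or6c35f, had 4.74, 4.74 and 5.48, and 3.07, 3.13 and 3.42, in the same order of groups.

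Like the olfactory receptors (65 of 1128 probe sets), other chemoreceptor families seldom passed the same level. It was passed by 2 of 162 vomeronasal receptor probe sets (the highest was Vom1r58 at 5.17), 0 of 16 trace amine receptor probe sets, and 1 of 38 taste receptor probe sets, which was Tas1r1, the umami receptor subunit, at 4.62. Or51e1, a receptor studied outside the nose, had a mean of 3.53 and was not above the level. Of 43 probe sets listed with several receptor symbols, 1 was above it. A further 69 probe sets carry older receptor names and did not match the rule.

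Genes of the odorant pathway and of olfactory sensory neurons were measured in the same cortex. Of 8 measured markers of olfactory sensory neurons, 4 had a mean above 4.6: Omp, the olfactory marker protein gene, at 5.07, the receptor chaperone genes Rtp1 at 5.82 and Rtp2 at 4.90, and Gng13, a G protein subunit gene, at 6.23. The channel genes Cnga2 and Cnga4 were under the level at 3.82 and 3.53, as were Stoml3 at 4.21 and Ano2 at 4.44. On the 27 measured genes of a list of odorant signalling and receptor expression, 21 were above the level, with Gnal at 8.38, Adcy3 at 8.03 and the Gnal exchange factor gene Ric8b at 8.46, which brain tissue is known to use. From this list 1 gene was called lower between MCAO and sham, the Ebf family gene Ebf4 at −0.87 log2, 0 between MCAO+NRG1 and MCAO, and 4 lower between MCAO+NRG1 and sham (Cnga2, Rtp2, Pde4a and Ebf1), where 5.61%, 0.0054% and 15.8% of all tested probe sets were called lower. The list's median differences were −0.13, −0.16 and −0.26, against −0.16, −0.08 and −0.24 over all tested probe sets. All 10 neuron markers and all 7 measured olfactory bulb markers were also above 4.6. So were 12728 of all 18511 tested probe sets, so a place above the level does not mark these lists out.

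The arrays differed in how many receptors they showed, before any test. Among all 1128 receptor probe sets, the number above 4.6 was 55, 59 and 50 on the MCAO+NRG1 arrays, 65, 54 and 66 on the MCAO arrays, and 62, 95, 112 and 87 on the sham arrays. Sham 2, 3 and 4 thus stood above all other arrays, and sham 1 lay within the range of the occluded ones. The median of the 65 receptors was 4.93, 4.97 and 4.84 in MCAO+NRG1, 5.05, 4.98 and 5.02 in MCAO, and 5.01, 5.35, 5.50 and 5.31 in sham. The median of all single-symbol probe sets was not ordered in the same way: it was 5.79 to 5.81 in MCAO+NRG1, 5.80, 5.82 and 6.12 in MCAO, and 6.05 to 6.11 in sham, so that MCAO 3 and sham 1 had high array medians and low receptor medians. The part of this difference between arrays in the tests below was not tested. Setting every array to the same median adds 0.16 log2 to every difference between MCAO and sham, 0.11 between MCAO+NRG1 and MCAO, and 0.27 between MCAO+NRG1 and sham. The labels give no scan batch.

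Or8h7b, a class II receptor gene on chromosome 3, was the brightest of the 65 and the one whose groups stood farthest apart. Its signal was highest in occluded cortex with vehicle. It was 7.73, 7.95 and 8.02 on the MCAO+NRG1 arrays, 10.09, 9.55 and 10.19 on the MCAO arrays, and 8.68, 7.76, 8.41 and 8.59 on the sham arrays. No MCAO array overlapped an array of another group, while the MCAO+NRG1 arrays and the sham arrays overlapped. The group means were 7.90 ± 0.15 (n = 3) in MCAO+NRG1, 9.94 ± 0.34 (n = 3) in MCAO and 8.36 ± 0.41 (n = 4) in sham. The spread around the group means was 0.34 log2, like the median of 0.34 over the 65 receptors, and wider than the 0.23 over all tested probe sets.

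**Figure D2:**
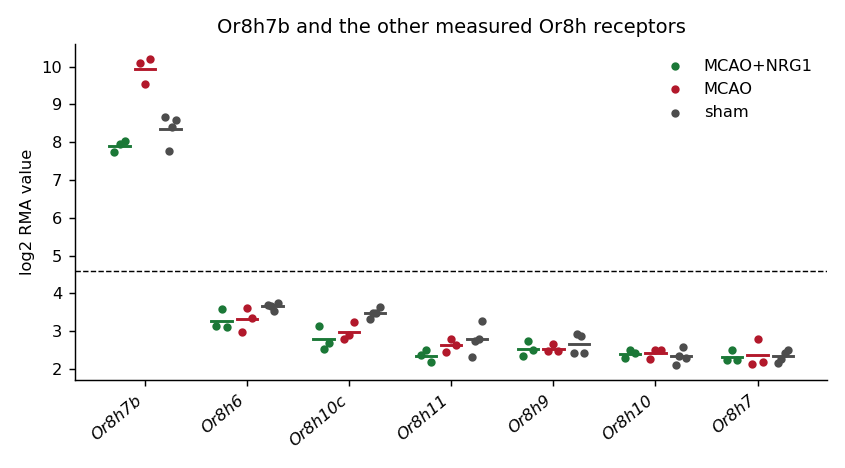
Log2 RMA value (vertical axis) of Or8h7b and the other measured Or8h receptors (horizontal axis) on each array, as points, with group means as bars, for MCAO+NRG1, MCAO and sham. All 10 values of Or8h7b lie above 7.7 and the other 6 receptors stay under the dashed line at 4.6 on every array.

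The 6 other measured receptors of the Or8h subfamily gave no such signal. Or8h6 was the brightest, with 3.28 in MCAO+NRG1, 3.31 in MCAO and 3.66 in sham as group means. Or8h7, the copy printed beside Or8h7b, had group means of 2.33 ± 0.14 in MCAO+NRG1, 2.37 ± 0.36 in MCAO and 2.33 ± 0.16 in sham. In the GRCr8 gene order the genes directly beside Or8h7b were not receptors but the pseudogene Hspa9-ps1 and an unnamed gene.

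Genes whose signal over the 10 arrays was most like that of Or8h7b were found by Pearson's r, given as a description. They were Vom2r4, a vomeronasal receptor gene (r = 0.92), the olfactory receptor gene Or4b1 (r = 0.91), the calmodulin regulator gene Pcp4 (r = 0.91), the AP-2 family factor gene Tfap2d (r = 0.89) and the interferon-induced transmembrane gene Ifitm7 (r = 0.87). The choice by r fixes that they are high where Or8h7b is high, so no test is given. Vom2r4 had group means of 3.41, 4.03 and 3.51 and Or4b1 of 3.46, 3.96 and 3.62 in MCAO+NRG1, MCAO and sham, both under 4.6. Pcp4 had 11.16, 11.45 and 11.19 in the same groups. Tfap2d had 4.64, 5.44 and 4.66, and Ifitm7 had 4.30, 5.24 and 4.29.

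The other bright receptors showed no group pattern of that kind. Or5h25 had 7.49, 7.25 and 7.31 in MCAO+NRG1, 7.67, 7.41 and 7.76 in MCAO, and 7.39, 7.71, 8.19 and 7.26 in sham. Or2ak5 had 6.48, 6.58 and 7.04 in MCAO+NRG1, 5.81, 6.61 and 6.66 in MCAO, and 6.40, 6.99, 7.41 and 6.82 in sham. The groups overlapped in both. Or2ak5d had 6.31, 5.96 and 4.84 in MCAO+NRG1, 5.98, 6.24 and 6.25 in MCAO, and 6.15, 6.44, 7.14 and 6.47 in sham, so that a single MCAO+NRG1 array was over 1 log2 under the rest. Or2ak6e, the third of the Or2ak receptors above the level, ran the other way against sham, with 5.20, 5.13 and 6.02 in MCAO+NRG1, 5.35, 5.43 and 4.82 in MCAO, and 4.30, 4.70, 5.18 and 4.86 in sham. Its difference between MCAO+NRG1 and sham was 0.69 ± 0.24 log2 (SE; adjusted p = 0.0578 in limma), and that of Or2ak5d −0.84 ± 0.29 (SE; adjusted p = 0.0526 in limma).

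**Figure D3:**
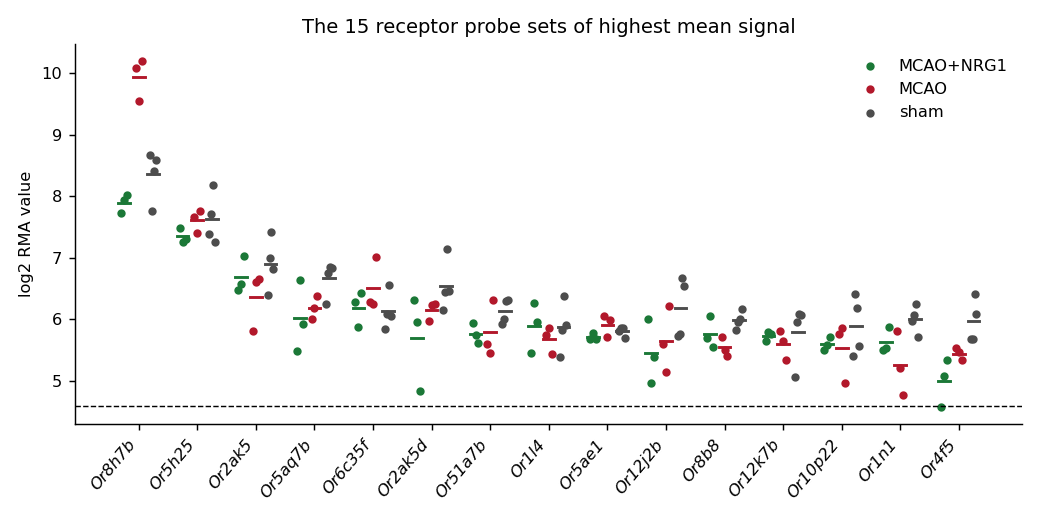
Log2 RMA value (vertical axis) of the 15 receptor probe sets of highest mean (horizontal axis) on each array, as points, with group means as bars, for MCAO+NRG1, MCAO and sham. Only in Or8h7b do the 3 MCAO arrays stand clear above all others, and most of the other receptors have overlapping groups.

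The next receptors by mean were Or5aq7b at 6.33, Or6c35f at 6.27, Or51a7b at 5.92, Or1l4 at 5.82, Or5ae1 at 5.82, Or12j2b at 5.80, Or8b8 at 5.79, Or12k7b at 5.72, Or10p22 at 5.70, Or1n1 at 5.67 and Or4f5 at 5.52. Neighbours in this order differed by less than their spread over the arrays. Or5ae1 was the steadiest, with 5.69, 5.79 and 5.69 in MCAO+NRG1, 6.05, 5.71 and 5.98 in MCAO, and 5.82, 5.87, 5.87 and 5.70 in sham. Or6c35f had 6.28, 5.87 and 6.42 in MCAO+NRG1, 6.28, 6.25 and 7.01 in MCAO, and 5.85, 6.08, 6.56 and 6.06 in sham. Or12j2b was more scattered, with 6.0, 4.97 and 5.38 in MCAO+NRG1, 5.61, 5.14 and 6.22 in MCAO, and 5.72, 5.77, 6.68 and 6.54 in sham.

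Between MCAO and sham, which differ by occlusion and by the reported vehicle injection, 1 receptor was called higher and 3 lower. Or8h7b was 1.58 ± 0.22 log2 higher in MCAO (SE; adjusted p = 0.00343 in limma), a 3.00-fold difference, and leaving out any single array kept it called, between 1.39 and 1.78. After median centring its difference was 1.74 (adjusted p = 0.00401 in limma). The receptors lower in MCAO were Or9e1, Or4c110 and Or1r1, all of class II. The 4 calls are 6.15% of the 65, against 6.7% of all tested probe sets (1.1% called higher and 5.61% lower), so this count lay near the background.

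Or9e1 had 5.08, 5.32 and 4.68 in MCAO+NRG1, 4.99, 4.39 and 4.80 in MCAO, and 5.45, 5.57, 6.05 and 5.40 in sham. All MCAO arrays were under all sham arrays, with a difference of −0.89 ± 0.21 log2 (SE; adjusted p = 0.0246 in limma). Or4c110 had 5.24, 5.18 and 4.91 in MCAO+NRG1, 5.16, 5.01 and 5.01 in MCAO, and 5.49, 5.78, 6.23 and 5.64 in sham, and the sham arrays stood above all 6 others. The difference between MCAO and sham was −0.72 ± 0.18 log2 (SE; adjusted p = 0.0313 in limma). Or1r1 had 4.84, 4.82 and 4.62 in MCAO+NRG1, 4.88, 4.32 and 4.29 in MCAO, and 5.05, 5.01, 5.34 and 5.38 in sham, again without overlap between MCAO and sham, with a difference of −0.70 ± 0.18 log2 (SE; adjusted p = 0.0333 in limma). After median centring, when 3.26% of all were called, none of the 3 lower receptors passed (adjusted p = 0.0655 for Or9e1, 0.0951 for Or4c110 and 0.121 for Or1r1 in limma). Each also lost its call without sham 2, sham 3, sham 4 or MCAO 2, and Or9e1 and Or4c110 without MCAO 1.

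The next 4 by p missed the threshold. Or8c20 differed by −0.55 log2 (adjusted p = 0.0507 in limma), Or1n1 by −0.74 (adjusted p = 0.0508 in limma), Or7a35 by −0.80 (adjusted p = 0.0562 in limma) and Or10j2 by −0.63 (adjusted p = 0.063 in limma). Or8c20 and Or10j2 had only the sham mean above 4.6, so the choice by level favoured a lower value in MCAO for them. Or1n1 had 5.50, 5.53 and 5.88 in MCAO+NRG1, 5.81, 5.21 and 4.77 in MCAO, and 5.97, 6.07, 6.25 and 5.71 in sham, so 1 MCAO array lay among the sham arrays. Or7a35 had 5.16, 4.23 and 4.87 in MCAO+NRG1, 5.11, 4.39 and 4.15 in MCAO, and 5.38, 5.35, 5.60 and 5.06 in sham, with the same kind of overlap.

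Over the 65 receptors the MCAO value was lower than the sham value in 50 and higher in 15. The median difference was −0.35 log2, against −0.15 in the dimmer receptors and −0.16 over all tested probe sets. The choice by level used the sham arrays and may have favoured this direction. The sham mean was above 4.6 in 63 of the 65, and the MCAO mean in 55. These counts and medians are therefore a description. After centring the median difference was −0.19, against 0.01 in the dimmer receptors. The arrays of MCAO and sham did not overlap in 8 receptors with lower signal in MCAO (12.3%, against 17.8% of all tested probe sets) and in 1 with higher signal (1.54%, against 2.74%). An unadjusted p under 0.05 was reached by 18 lower and 1 higher, or 27.7% and 1.54% of the 65, against 23.6% and 5.48% of all (29% in either direction). Without sham 1 the count of receptors called was 15, when 18.14% of all tested probe sets were called, it was 1 without sham 2, sham 3, sham 4 or MCAO 2 (0.56%, 1.11%, 0.55% and 0.84% of all), and 8 without MCAO 3 (12.3%, against 19.36% of all).

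**Figure D4:**
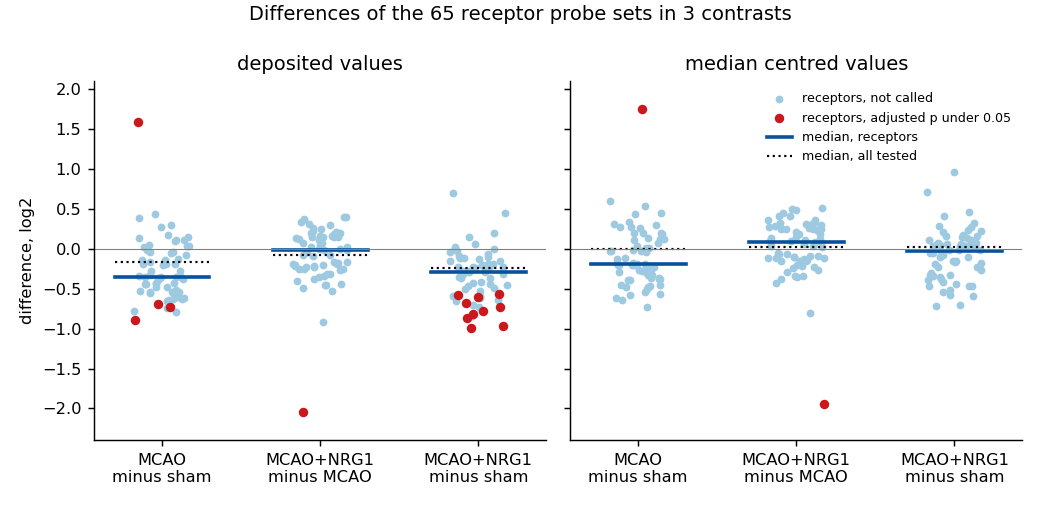
Difference in log2 signal (vertical axis) of the 65 receptor probe sets in 3 contrasts (horizontal axis), on the deposited values in the left panel and after median centring in the right panel, with medians of the receptors as solid lines and of all tested probe sets as dotted lines. Red points passed an adjusted p under 0.05: 4, 1 and 10 receptors on the deposited values, and 1, 1 and 0 after centring.

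Between MCAO+NRG1 and MCAO, which asks what NRG1 does in occluded cortex, Or8h7b was the single call. The difference was −2.05 ± 0.23 log2 (SE; adjusted p = 0.00295 in limma), which is 4.13-fold lower, and after median centring the difference was −1.94 (adjusted p = 0.0126 in limma). The count of 1 is 1.54% of the 65, and 0.0054% of all tested probe sets, since no other of the 18511 was called. The call rests on MCAO 1 and MCAO 3: it was lost without MCAO 1 (−1.97, adjusted p = 0.0668 in limma) and without MCAO 3 (−1.92, adjusted p = 0.132 in limma). It was also lost when all 36685 probe sets were tested (adjusted p = 0.151 in limma).

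Of the striatal neuron markers 1 of 7 was called higher between MCAO and sham, where 1.1% of all tested probe sets were. The list's median level was highest in MCAO, as was Or8h7b. This median level over the 7 measured markers (of 8 listed; all above 4.6) was 7.14 to 8.30 on the MCAO+NRG1 arrays, 8.07 to 8.81 on the MCAO arrays and 7.47 to 8.14 on the sham arrays, so the groups overlapped. MCAO+NRG1 2 was within the MCAO range in Penk (10.70, against 10.34 to 10.86 in MCAO) and Drd1 (8.57, against 8.07 to 8.81), while its Or8h7b value was 7.95. The list's median difference was 0.48 log2 between MCAO and sham, where Tac1, the substance P precursor gene, was the call, and −0.45 between MCAO+NRG1 and MCAO, with 0 called. Their part in the Or8h7b result was not tested. In whole tissue, fewer cells of a type and less RNA per cell cannot be told apart.

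No other receptor passed between the occluded groups, and the adjusted p was 0.999 in limma for those that follow. Or2y1i had 4.74, 4.52 and 4.28 in MCAO+NRG1, 5.88, 4.69 and 5.71 in MCAO, and 5.20, 5.05, 5.70 and 5.22 in sham, and MCAO+NRG1 minus MCAO was −0.91 ± 0.27 log2 (SE). Or2l13 had 4.79, 4.70 and 4.94 in MCAO+NRG1, 5.30, 5.33 and 5.18 in MCAO, and 5.12, 5.52, 5.29 and 5.64 in sham, a difference of −0.46 ± 0.17 (SE) without overlap. Or5w8 had 4.93, 4.82 and 4.26 in MCAO+NRG1, 4.81, 5.10 and 5.56 in MCAO, and 4.64, 5.0, 4.88 and 4.94 in sham (−0.49 ± 0.22, SE). These were the nearest to a call after Or8h7b, and in Or2y1i and Or5w8 the groups overlapped. Or4p20b, Or4f5, Or4x11 and Or9r3b followed at −0.53, −0.44, −0.40 and −0.34 log2.

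The receptors otherwise showed little net difference between the occluded groups. The signal was lower in MCAO+NRG1 in 37 of the 65 and higher in 28, with a median difference of −0.02 log2, against −0.08 over all tested probe sets. After centring the split was 28 lower and 37 higher, with a median of 0.09. Groups did not overlap in 3 receptors lower in MCAO+NRG1 (Or8h7b, Or2l13 and Or4x11; 4.62%, against 4.27% of all) and in 0 higher ones (against 1.47%). An unadjusted p under 0.05 was reached by 4 lower and 0 higher, or 6.15% and 0% of the 65, against 2.38% and 0.827% of all (3.21% in either direction).

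Between MCAO+NRG1 and sham, 10 receptors were lower and 0 higher. Of the 10, Or2t45b, Or2h2c, Or2l13 and Or2y1i are of family 2, Or4f5, Or4c110 and Or4p20b of family 4, and Or8c20, Or5d41b and Or10j2 of others. They are 15.4% of the 65, against 17.3% of all tested probe sets (15.8% called lower and 1.51% higher), again near the background. Of the 10, Or8c20 and Or10j2 had only the sham mean above 4.6 (group means of 4.53 and 4.56 in MCAO+NRG1, 4.54 and 4.54 in MCAO, and 5.09 and 5.17 in sham). Or2t45b and Or2h2c had 4.30 and 4.42 in MCAO+NRG1, 4.67 and 4.67 in MCAO, and 5.29 and 5.28 in sham. Their place above the level also rested on sham. The choice by level thus favoured this direction for these receptors, and the count is no support for it. Or8h7b itself had a difference of −0.46 ± 0.22 log2 between MCAO+NRG1 and sham (SE; adjusted p = 0.137 in limma), with overlapping arrays. Both comparisons with sham use the same 4 sham arrays, and Or4c110 was called in both.

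The largest differences were those of Or2t45b and Or4f5. Or2t45b had 4.83, 4.15 and 3.92 in MCAO+NRG1, 4.95, 4.15 and 4.92 in MCAO, and 5.43, 5.58, 5.22 and 4.93 in sham, and MCAO+NRG1 minus sham was −0.99 ± 0.24 log2 (SE; adjusted p = 0.0161 in limma). Or4f5 had 4.58, 5.09 and 5.34 in MCAO+NRG1, 5.53, 5.47 and 5.33 in MCAO, and 5.69, 5.68, 6.41 and 6.09 in sham, a difference of −0.97 ± 0.21 (SE; adjusted p = 0.0107 in limma). In both, all MCAO+NRG1 arrays were under all sham arrays. Or2h2c had 4.35, 4.59 and 4.33 in MCAO+NRG1, 4.59, 4.29 and 5.14 in MCAO, and 4.85, 5.07, 5.75 and 5.47 in sham, a difference of −0.86 ± 0.23 (SE; adjusted p = 0.0209 in limma). The MCAO+NRG1 means of Or2t45b and Or2h2c, 4.30 and 4.42, stood under 4.6, and that of Or4f5 was 5.0. The choice by level favoured a lower value than in sham for Or2t45b and Or2h2c.

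Or4p20b had 4.52, 5.24 and 4.43 in MCAO+NRG1, 5.15, 4.98 and 5.65 in MCAO, and 5.09, 5.98, 5.53 and 5.57 in sham, with 1 MCAO+NRG1 array among the sham arrays. Or5d41b had 4.82, 4.69 and 5.09 in MCAO+NRG1, 5.10, 4.89 and 4.82 in MCAO, and 4.97, 5.58, 6.18 and 5.66 in sham, and sham 1 lay among the occluded arrays. Or8c20 had 4.56, 4.59 and 4.43 in MCAO+NRG1, 4.68, 4.25 and 4.70 in MCAO, and 4.95, 5.21, 5.23 and 4.98 in sham, so that both occluded groups were under every sham array. Or10j2 had 4.35, 4.93 and 4.42 in MCAO+NRG1, 4.25, 4.35 and 5.01 in MCAO, and 4.96, 5.31, 5.20 and 5.20 in sham, without overlap between MCAO+NRG1 and sham. The differences were −0.81 for Or4p20b, −0.73 for Or5d41b, −0.57 for Or8c20 and −0.61 for Or10j2 on the log2 scale (adjusted p = 0.0315, 0.0366, 0.0286 and 0.0488 in limma). Those of Or4c110, Or2y1i and Or2l13 were −0.68, −0.78 and −0.58 (adjusted p = 0.0218, 0.0432 and 0.0255 in limma).

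**Figure D5:**
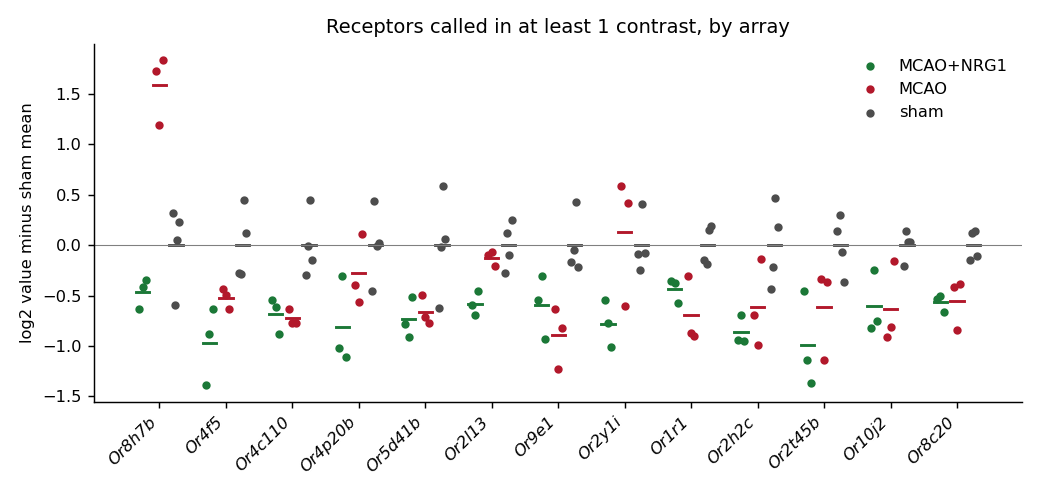
Log2 value minus the sham mean of the same probe set (vertical axis) on each array for the 13 receptors called in at least 1 contrast (horizontal axis), as points, with group means as bars, for MCAO+NRG1, MCAO and sham. Or8h7b has its 3 MCAO arrays above sham, and most others have both occluded group means under the sham mean.

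None of the 10 passed after median centring (adjusted p = 0.0786 to 0.257 in limma), where 5.38% of all tested probe sets were called. The count was 20 without sham 1, when 25.91% of all were called, 2, 3 and 4 without sham 2, 3 and 4 (5.91%, 7.28% and 6.7% of all), 3 without MCAO+NRG1 1 (6.07% of all) and 1 without MCAO+NRG1 3 (4.8% of all). Over the 65, 58 were lower in MCAO+NRG1 and 7 higher, with a median of −0.29 log2, against −0.24 over all tested probe sets, and of −0.03 after centring. Here too the choice by level may have favoured this direction, since 49 of the 65 had an MCAO+NRG1 mean above 4.6, against 63 in sham. Arrays did not overlap in 14 lower receptors (21.5%, against 34.2% of all) and 0 higher ones (against 2.17%). An unadjusted p under 0.05 was reached by 26 lower and 1 higher, or 40% and 1.54% of the 65, against 32.1% and 3.88% of all (36% in either direction).

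Markers of vessels, of choroid plexus and of the olfactory bulb held genes called lower in the same direction. Of all tested probe sets, 5.61% were called lower between MCAO and sham and 15.8% between MCAO+NRG1 and sham. The median level of the 6 measured endothelial markers (of 8 listed; all above 4.6) was 5.70 to 6.79 in MCAO+NRG1, 6.40 to 6.98 in MCAO and 7.25 to 7.46 in sham, and 6 were called lower between MCAO+NRG1 and sham and 2 between MCAO and sham. The 8 choroid plexus markers had medians of 4.28 to 4.61, 4.39 to 4.57 and 5.11 to 6.21 in these groups, with 5 above 4.6, and 5 were called lower between MCAO+NRG1 and sham and 0 between MCAO and sham. Of the endothelial and choroid plexus markers, only Cldn5 stayed called after median centring (MCAO+NRG1 minus sham, adjusted p = 0.0236 in limma). Sham 2 and sham 4 stood apart in Ttr, the transthyretin gene, at 11.24 and 8.62, against 5.83 and 5.57 in sham 1 and sham 3, and sham 2 in Kl at 7.85, against 4.99 to 5.56 on the other sham arrays. Of the 7 olfactory bulb markers (list medians of 5.20 to 5.66, 5.55 to 5.79 and 5.59 to 6.10 in these groups), Doc2g was called lower in MCAO (−0.88, adjusted p = 0.0195 in limma) and in MCAO+NRG1 (−1.10, adjusted p = 0.00349 in limma) than in sham. Doc2g stayed called after centring (adjusted p = 0.0499 and 0.0253 in limma). Eomes was called lower in MCAO+NRG1 (−0.67, adjusted p = 0.0209 in limma), but not after centring (adjusted p = 0.158 in limma). Tbx21, Cdhr1 and Th were lower than in sham in both comparisons without a call. Slc17a6 and Calb2 were higher without a call, at 0.47 and 0.42 log2 between MCAO and sham. The part of these markers in the receptors' differences was not tested.

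A moderated F test over the 3 groups called 8 of the 65 (12.3%), against 11.5% of all tested probe sets: Or8h7b, Or4f5, Or4c110, Or9e1, Or2t45b, Or8c20, Or1r1 and Or2h2c. After centring Or8h7b remained the only one called, when 4.05% of all were. An unadjusted p under 0.05 was reached by 23, against 31.7% of all. Of all 65, 63 had a sham mean above 4.6, 55 an MCAO mean and 49 an MCAO+NRG1 mean above it. In 5 receptors only the sham mean was above 4.6, in 1 only the MCAO mean and in 0 only the MCAO+NRG1 mean.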

How the data were processed

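Left cortex RNA of 10 rats was measured on Affymetrix Rat Gene 2.0 ST arrays, 1 per animal. The deposited values, 36685 probe sets on a log2 scale, were made by the authors with the RMA method of the oligo package (versions not given in the sources used here), and whether all arrays were normalized together is not stated. Groups were taken from the sample titles. Probe sets were joined to symbols through the platform annotation: 18511 had a single symbol, 575 several and 17599 none. Receptors were found by the form of the symbol and a mean above 4.6. Chromosomes, gene order and upstream sequences came from RefSeq tables of GRCr8, while no build is named for the array's own annotation.

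A 3-group linear model was fitted over the 18511 probe sets with limma (version 3.58.1; R version 4.3.3; default moderated statistics, 3 contrasts and a moderated F test). A probe set was called where the p adjusted by Benjamini-Hochberg over all 18511 was under 0.05. The fit was checked on simulated data. The number of arrays sets the precision, and no counts or depth exist for arrays.

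The receptors, marker lists and named genes were chosen with earlier results of these data known, the call of Or8h7b included. Genes named are the 15 receptors of highest mean, those called in any contrast, the 8 of smallest p per contrast, the 3 on each side of the level, the 5 probe sets most like Or8h7b and the nearest genes with a single-symbol probe set that are no receptors on each side of the brightest 5. Other Or8h and Or2ak receptors, Or51e1 and list members were named in addition. Alternatives were median centring, quantile normalization, other filters, levels and fits, a replicate block and leaving out each array.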

Additional observations from a re-analysis of the deposited data

Results flagged for a closer look

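In the 4 sham arrays, the 65 receptors were each examined for an array that stands apart from the other 3 by Dixon's ratio, and 3 were found, where chance gives about 1 in 20. For Or5aq7b the array that stands apart is sham 1, at 6.25 (6.246) against 6.75 to 6.86 on the other sham arrays. For Or12k7b it is again sham 1, at 5.06 against 5.95 to 6.08. For Or51q1d it is sham 2, at 5.92 against 5.23 to 5.28. None of the 3 receptors was called between groups.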

How the results depend on the processing

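The Or8h7b difference between MCAO and sham kept its direction and its call under all alternatives. For the other named receptors, 24 differences were recomputed under 21 alternatives, which gave 504 values. Of these, 363 kept their side of the threshold, 122 lost a call, 19 gained one and 0 changed direction. Several alternatives alter only the p or the set of probe sets tested and leave the difference as it was. For those the direction could not change. The Or8h7b difference between MCAO+NRG1 and MCAO was −2.05 when all probe sets were tested, without a call (adjusted p = 0.151 in limma), and −2.24 to −1.92 with an array left out. Its difference between MCAO+NRG1 and sham was −0.46, past 0.05 only before adjustment (limma), and −0.66 to −0.36 with an array left out. The counts of receptors called were 4 (MCAO minus sham), 1 (MCAO+NRG1 minus MCAO), 10 (MCAO+NRG1 minus sham) and 8 (F test). Percentages below are of all single-symbol probe sets in the 3 contrasts. The counts became 1, 1, 0 and 1 with median centring (3.26%, 0.01% and 5.38%) and 1, 1, 1 and 1 with quantile normalization (4.01%, 0.01% and 5.62%). With all probe sets tested they were 1, 0, 1 and 1 (0.82%, 0% and 7.04%). By unadjusted p they were 19, 4, 27 and 23 (29.05%, 3.21% and 36.01%), and with array weights 29, 1, 24 and 29 (38.46%, 0.01% and 42.25%). With only the 2 groups compared in the fit, the 3 contrasts had 2, 1 and 14 (2.75%, 0.01% and 25.09%). With an array left out the ranges were 1 to 15, 0 to 1, 1 to 20 and 1 to 19. The number of receptors was 36 above a mean of 5 and 43 with each group mean above 4.6. Replicate numbers did not pair the arrays: of 9 same-numbered pairs 3 correlated above 0.1 (range −0.188 to 0.224), and 4 of 10 arrays correlated best with their own number. With the replicate number as a block the counts were 1, 1, 5 and 2 (1.25%, 0.01% and 7.74% of all probe sets in the 3 contrasts), and with the block and centring 1, 1, 0 and 1. The cause of these changes was not tested. Groups of 3 and 4 arrays limit what can be called, most receptors lie close to the level of 4.6, where folds may be understated, and the arrays give no detection call.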
